A study of Caenorhabditis elegans with 6 samples.

Results

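Collagen genes of the annuli, the struts and the body shape of the nematode Caenorhabditis elegans were followed in whole animals of the fourth larval stage (L4). The 10 genes were taken by name: dpy-4, dpy-5, dpy-13, dpy-17, sqt-1, sqt-2, sqt-3, rol-6, bli-1 and bli-2. All 10 were found among the 46911 gene identifiers of the count files. The mutant and the control had 3 libraries each. The mutant was strain VC295, labelled as carrying unc-30(ok613) on chromosome IV, and the control was the wild-type strain N2. Both were grown on E. coli OP50 at 20 °C, and no treatment differed between them in the labels. All 6 samples carry unc-30(ok613) in the genotype label, so the groups rest on the strain and the title. Whole animals were used, so the RNA came from every tissue, and neither the number of animals per library nor any backcrossing of VC295 could be taken from the labels. Nothing in the labels says that replicates were separate cultures. Each p-value therefore sets the difference between groups only against the spread of these libraries, and that spread may be technical.

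The cuticle of C. elegans is an extracellular coat built mostly of collagens, which the epidermis secretes anew for each molt. Collagen chains are hydroxylated and folded in the endoplasmic reticulum, trimmed by proteases after export, and joined by tyrosine cross-links. Cuticle collagen genes are transcribed in pulses tied to the molting cycle, some early and some late within each cycle, and the adult cuticle made during L4 adds hollow struts between its layers. Mutations in these genes are known by the shape of the worm, being dumpy (dpy), squat (sqt), rolling (rol) or blistered (bli).

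Each mutant library held 20188810 to 24498576 counts, and each wild-type library 17318736 to 26377332. The gene unc-30 itself, which encodes a homeodomain transcription factor of GABAergic motor neurons, had 20, 24 and 17 counts in mutant replicates 1 to 3, against 23, 26 and 17 counts in wild-type replicates 1 to 3. Counts over the whole gene do not check the labels, because which exons ok613 removes was not known from the labels. Scaling factors by the trimmed mean of M-values (TMM) were 0.654 to 0.760 for mutant libraries and 1.38 to 1.49 for wild-type libraries. Levels below are in CPM, which are counts scaled by these factors to a common library total, unless another scale is named. When libraries were scaled by total counts alone, the median log2 fold change over genes shifted by -1.01, so each direction below is relative to the TMM scale. The share of ribosomal RNA was 7.65% to 12.7% in mutant libraries and 0.394% to 8.20% in wild-type libraries, the lowest being wild-type replicate 2. Wild-type replicate 2 also stood apart from wild-type replicates 1 and 3 in the collagen genes themselves, so the fold change of each of the 10 collagens is also given without it. It was picked out by the values of these same collagens, in which it was the highest wild-type library. Leaving it out therefore had to raise their folds, so calls and adjusted p-values without it are no support for a rise. Fits of the other gene lists without wild-type replicate 2 are likewise no support for a rise.

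All 10 collagens had a higher mean in the mutant, but only 4 of 10 passed the test. These were sqt-1, sqt-2, rol-6 and dpy-17, called by the quasi-likelihood test of edgeR at a Benjamini-Hochberg adjusted p under 0.05, and none was lower. Over all 14506 genes tested, 17.1% were called higher and 20.9% lower in the mutant. At an unadjusted p under 0.05 by edgeR, 8 collagens were higher and 0 lower, where 3202 of the 14506 genes were higher and 3882 lower. The median log2 fold change of the 10 collagens, mutant minus wild type, was 2.32, where the median of all genes tested was -0.10. Every mutant library lay above every wild-type library in 8 of 10 collagens on the TMM scale, which also held for 24.4% of all genes. On the scale of total counts this was true of 0 of 10 collagens and 4.86% of all genes.

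Both the count of calls and the size of the folds rested on single libraries. Without wild-type replicate 2, all 10 collagens were called higher by edgeR, with a median log2 fold change of 3.92, while 19.4% of all genes were called higher and 21.8% lower. Without mutant replicate 2 or 3, or without wild-type replicate 1 or 3, edgeR called 0 of 10, although the log2 fold changes stayed between 1.02 and 2.66. Calls over all genes fell too in these fits, to 1359 to 1942 higher and 1424 to 2555 lower, of 14597 to 15075 tested. With all 6 libraries they were 2476 higher and 3035 lower, of 14506 tested. On total counts edgeR also called 0 of 10 collagens (0 at an unadjusted p under 0.05), with a median of 1.30, where 3.43% of all genes were called higher and 56.4% lower. With all 6 libraries, DESeq2 called 9 and limma-voom 10 as higher. Over all 14506 genes tested, DESeq2 called 3011 higher and 3098 lower, and limma-voom 2682 higher and 2955 lower.

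**Figure D1:**
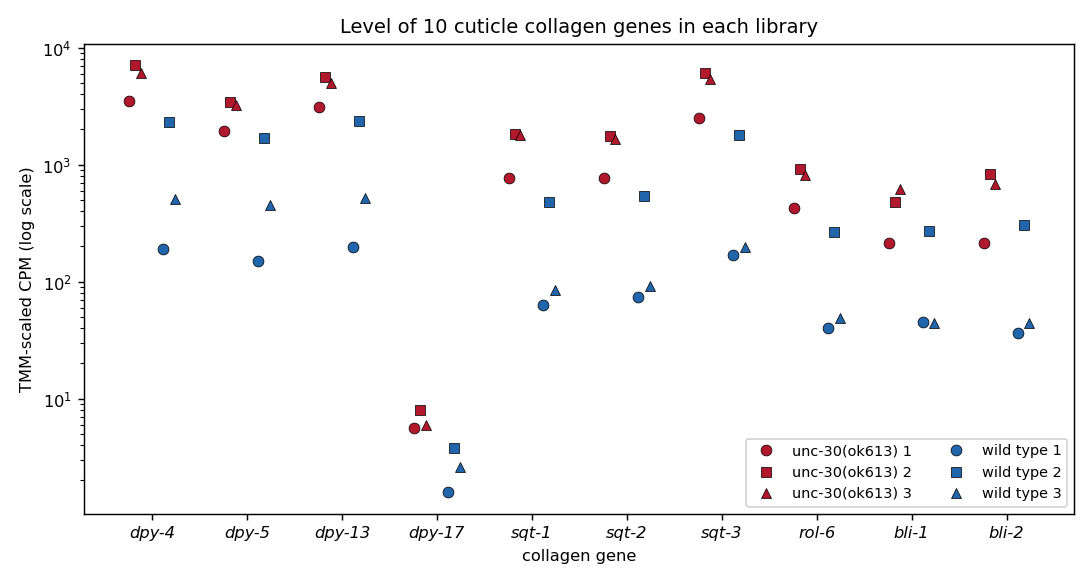
Level of each collagen gene in every library, as TMM-scaled CPM on a log axis, with unc-30(ok613) libraries in red on the left of each gene and wild-type libraries in blue on the right; the marker shape gives the replicate number. The wild-type squares (replicate 2) lie above the other wild-type libraries for every gene, and in bli-1 and bli-2 above mutant replicate 1; dpy-17 lies far below the rest.

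The collagens known from the annuli, the ridges that ring the body, had the 3 highest means of the set per kilobase of exon in both genotypes. dpy-4 (WBGene00001066; chromosome IV, 14985543 to 14986784, minus strand) had 3498, 7056 and 6075 CPM in mutant replicates 1 to 3, against 192, 2322 and 509 CPM in wild-type replicates 1 to 3. dpy-13 (WBGene00001074; chromosome IV, 4235614 to 4236710, plus strand) had 3096, 5599 and 5031 CPM in the mutant and 197, 2344 and 519 CPM in wild type. In both genes mutant replicate 1 was the lowest of its group and wild-type replicate 2 the highest of its own, and the groups did not overlap. dpy-5 (WBGene00001067; chromosome I, 5432197 to 5433051, minus strand) had 1932, 3439 and 3259 CPM in the mutant, against 149, 1689 and 448 CPM in wild type, again without overlap.

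None of these 3 annular collagens passed the test. The log2 fold change was 2.46 ± 0.86 for dpy-4 (SE; edgeR adjusted p = 0.0598), 2.17 ± 0.84 for dpy-13 (adjusted p = 0.0800) and 1.92 ± 0.80 for dpy-5 (adjusted p = 0.0988). Their spread within wild type was wide, the highest library being 12.1 times the lowest for dpy-4, 11.9 times for dpy-13 and 11.3 times for dpy-5. Within the mutant the same quotients were 2.02, 1.81 and 1.78. All 3 passed once wild-type replicate 2, picked out by the collagen values themselves, was left out. The log2 fold changes were then 3.99 for dpy-4, 3.68 for dpy-13 and 3.28 for dpy-5 (edgeR adjusted p = 0.00289, 0.00284 and 0.00440). On the scale of total counts wild-type replicate 2 (3291 CPM of dpy-13) lay between mutant replicate 1 (2351 CPM) and mutant replicate 2 (3909 CPM), and the log2 fold changes of dpy-4, dpy-13 and dpy-5 were 1.44, 1.15 and 0.90.

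Among the shape collagens, sqt-1, sqt-2 and rol-6 rose in the mutant and moved as a group. sqt-1 and rol-6, whose mutations interact in producing rolling animals, both encode cuticle collagens, as does sqt-2. sqt-1 (WBGene00005016; chromosome II, 11336693 to 11337837, minus strand) had 774, 1815 and 1798 CPM in mutant replicates 1 to 3, against 62.7, 481 and 84.1 CPM in wild-type replicates 1 to 3. sqt-2 (WBGene00005017; chromosome II, 23325 to 24458, plus strand) had 772, 1756 and 1653 CPM in the mutant and 74.5, 544 and 92.1 CPM in wild type. rol-6 (WBGene00004397; chromosome II, 8733050 to 8734239, plus strand) had 430, 912 and 818 CPM in the mutant and 40.5, 264 and 49.1 CPM in wild type. In each of these genes the lowest mutant library was replicate 1 and lay above wild-type replicate 2, so the groups did not overlap.

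The mean of sqt-1 was 1463 ± 596 CPM over the 3 mutant libraries and 209 ± 235.5 CPM over the 3 wild-type libraries (SD), a fitted 6.99-fold difference (log2 fold change 2.81 ± 0.84, SE; edgeR adjusted p = 0.0365). rol-6 was 6.11-fold higher (log2 2.61 ± 0.77; edgeR adjusted p = 0.0358) and sqt-2 5.89-fold higher (log2 2.56 ± 0.82; edgeR adjusted p = 0.0456). Each of these calls was lost when any of mutant replicates 2 and 3 and wild-type replicates 1 and 3 was left out (edgeR adjusted p = 0.0867 to 0.120), and none of them passed on total counts (adjusted p = 0.0811 to 0.117). Leaving out wild-type replicate 2 gave log2 fold changes of 4.32 for sqt-1, 4.07 for sqt-2 and 4.01 for rol-6 (edgeR adjusted p = 0.00234 for each).

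sqt-3 and dpy-17 encode collagens that depend on each other for assembly into the cuticle, but their transcript levels were far apart. sqt-3 (WBGene00005018; chromosome V, 12352745 to 12354320, plus strand) had 2483, 6027 and 5341 CPM in mutant replicates 1 to 3, against 169, 1791 and 196 CPM in wild-type replicates 1 to 3. Its groups did not overlap, yet its log2 fold change of 2.68 ± 0.97 (SE) did not pass (edgeR adjusted p = 0.0657). Without wild-type replicate 2 the log2 fold change was 4.67 (edgeR adjusted p = 0.00234), the highest of the 10 in that fit. dpy-17 (WBGene00001076; chromosome III, 5107330 to 5108492, plus strand) had few reads, with no library under 62 counts.

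On the TMM scale dpy-17 had 5.60, 8.07 and 5.98 CPM in mutant replicates 1 to 3, against 1.58, 3.83 and 2.63 CPM in wild-type replicates 1 to 3, without overlap. The gene rose by a fitted 2.46-fold (log2 fold change 1.30 ± 0.38, SE; edgeR adjusted p = 0.0287), the lowest fold of the 10 with the narrowest spread. Its highest library was 1.44 times its lowest in the mutant and 2.42 times in wild type. The call is tied to the scaling: on total counts its log2 fold change was 0.29 (edgeR adjusted p = 0.513), and wild-type replicate 2 was higher than mutant replicates 1 and 3. It was also lost when any of mutant replicates 2 and 3 and wild-type replicates 1 and 3 was dropped (adjusted p = 0.0619 to 0.103), and without wild-type replicate 2 its log2 fold change was 1.65 (edgeR adjusted p = 0.0125).

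The strut collagens were the pair whose groups overlapped. bli-1 and bli-2 build the struts of the adult cuticle, and blisters form where struts are missing. bli-1 (WBGene00000251; chromosome II, 10708960 to 10712156, plus strand) had 213, 483 and 625 CPM in mutant replicates 1 to 3, against 45.7, 271 and 44.4 CPM in wild-type replicates 1 to 3. bli-2 (WBGene00000252; chromosome II, 5651394 to 5652434, minus strand) had 213, 839 and 680 CPM in the mutant and 36.4, 304 and 44.2 CPM in wild type. Wild-type replicate 2 exceeded mutant replicate 1 in both.

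The log2 fold change was 1.87 ± 0.80 for bli-1 (SE; edgeR adjusted p = 0.103) and 2.17 ± 0.92 for bli-2 (edgeR adjusted p = 0.104), neither of which passed. Without wild-type replicate 2 both did, at 3.30 and 3.85 (edgeR adjusted p = 0.00282 and 0.00419). Whether strand was used in the counting is not stated in the labels, and both genes lie opposite another protein-coding gene. dph-2, opposite bli-1, had 182 to 301 counts in mutant libraries and 380 to 651 in wild-type libraries. zyg-1, opposite bli-2, had 134 to 286 counts in mutant libraries and 464 to 1142 in wild-type libraries. bli-1 itself had 3315 to 8263 counts in mutant libraries and 1417 to 6594 in wild-type libraries. bli-2 had 3309 to 14352 counts in mutant libraries and 1412 to 7391 in wild-type libraries. In wild-type replicate 1 bli-2 had 1426 counts and zyg-1 1142. The opposite genes were largest beside the strut genes in wild-type replicates 1 and 3, and their part in the strut values was not tested. dpy-4 also lies opposite a protein-coding gene, atln-2, which had 5 to 56 counts per library. Collagens are a large family of similar sequences, and how reads shared between members were counted is not stated in the labels.

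**Figure D2:**
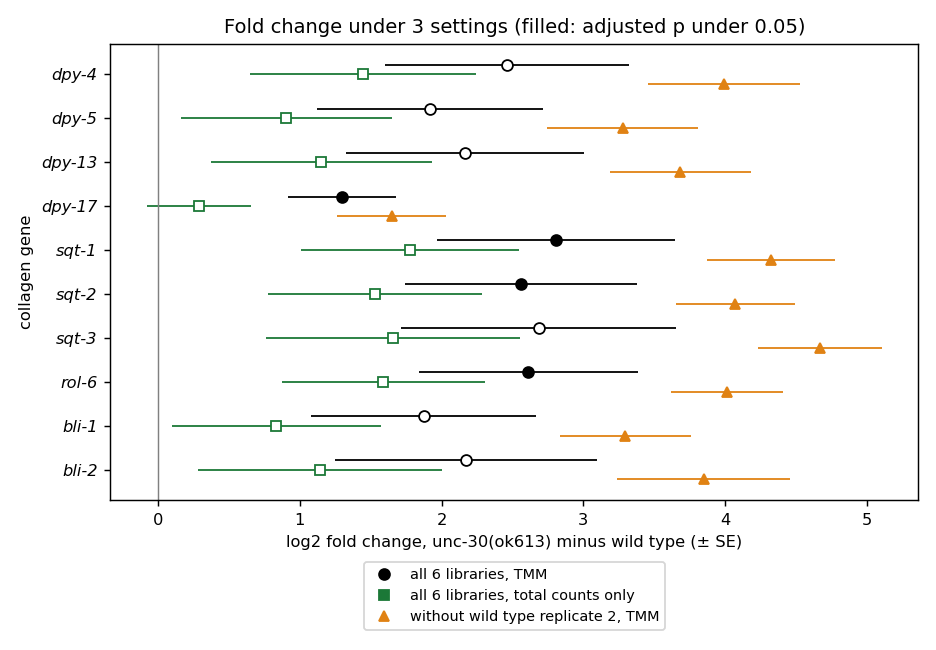
Log2 fold change (unc-30(ok613) minus wild type) of each collagen gene with its SE, from edgeR with all 6 libraries and TMM scaling (black), with total counts only (green) and without wild-type replicate 2 (orange); filled markers passed at an adjusted p under 0.05. All 30 estimates are above 0; 4 of 10 passed with TMM, 0 with total counts and 10 without wild-type replicate 2.

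Levels per kilobase of exon put the genes in an order that was nearly the same in every library. In the mutant the mean was 5521 ± 1830 CPM per kb for dpy-4, 4626 ± 1327 for dpy-13, 3364 ± 962 for dpy-5 and 3247 ± 1322 for sqt-3 (SD, n = 3). Next came sqt-1 at 1401 ± 571, sqt-2 at 1353 ± 525, rol-6 at 661 ± 234.6, bli-2 at 581 ± 328 and bli-1 at 146 ± 69.5 CPM per kb, and dpy-17 was last at 5.89 ± 1.197. In wild type dpy-13 led with 1031 ± 1171 CPM per kb, followed by dpy-4 with 1003 ± 1144, and dpy-17 was again last at 2.41 ± 1.011. Of the 45 pairs of genes, 40 stood in the same order in all 6 libraries. The same count was not taken for other gene pairs, and many of these means lie far apart. A steady order is therefore not read as particular to the collagens. The 5 pairs that changed places were dpy-4 with dpy-13, dpy-4 with dpy-5, dpy-5 with sqt-3, sqt-1 with sqt-2 and rol-6 with bli-2. Between neighbours in the mutant order only bli-2 over bli-1 and bli-1 over dpy-17 differed by more than the sum of their SDs.

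Ratios within a library do not depend on how libraries are scaled. The groups did not overlap in 15 of the 45 ratios of counts between the 10 collagens and overlapped in the other 30. Among all 102223551 pairs of tested genes with counts in every library, 50.2% of ratios did not overlap, so separation was less frequent among the collagens than among gene pairs at large, and a separated ratio is not particular to them. These ratios share genes and are not independent, and with 3 libraries against 3 an exact two-sided permutation test cannot go below p = 0.10, so none could pass alone. Those described below were picked after their values were seen.

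The shape collagens were higher relative to bli-1 in the mutant. The ratio of sqt-1 to bli-1 counts was 3.63, 3.76 and 2.88 in mutant replicates 1 to 3, against 1.37, 1.77 and 1.89 in wild-type replicates 1 to 3. The ratio of sqt-2 to bli-1 was 3.62, 3.64 and 2.64 in the mutant and 1.63, 2.004 and 2.07 in wild type. For rol-6 the ratio to bli-1 was 2.02, 1.89 and 1.31 in the mutant, against 0.887, 0.973 and 1.11 in wild type. Wild-type replicate 2 was in the middle of its group in all 3 ratios, unlike in the levels. bli-1 has 3010 bases of exon, against 1044 for sqt-1, 1030 for sqt-2 and 1089 for rol-6. With length trends removed, the log2 fold change of bli-1 was 2.41, against 1.87 with them. Those of sqt-1, sqt-2 and rol-6 were then 2.78, 2.52 and 2.61, against 2.81, 2.56 and 2.61. The gap to bli-1 was thus smaller in that fit, and the part of gene length in these ratios was not tested. The ratio of sqt-3 to bli-1 was 8.54 to 12.5 in mutant libraries and 3.70 to 6.61 in wild type, where replicate 2 was the highest. Relative to bli-2, sqt-1, sqt-2 and sqt-3 also lay higher in every mutant library than in every wild-type library, with sqt-1 at 2.16 to 3.64 in the mutant, against 1.58 to 1.90 in wild type, but rol-6 overlapped. For sqt-2 the margin was narrow, the lowest mutant ratio being 2.09 and the highest wild-type ratio 2.08.

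Within the annular set dpy-4 was higher relative to dpy-13 in the mutant. Their ratio was 1.13, 1.26 and 1.21 in mutant replicates 1 to 3, against 0.975, 0.990 and 0.981 in wild-type replicates 1 to 3. In wild type the 2 genes kept their ratio within a factor of 1.02 while their levels ranged over a factor of about 12 (12.1 and 11.9). The ratio of dpy-4 to dpy-5 was 1.81 to 2.05 in the mutant, against 1.14 to 1.37 in wild type. The steadiest ratio across the 6 libraries was sqt-2 to rol-6, at 1.79 to 2.02 in the mutant, against 1.84 to 2.06 in wild type. sqt-1 to sqt-2 was 1.003 to 1.09 in the mutant, against 0.841 to 0.913 in wild type.

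**Figure D3:**
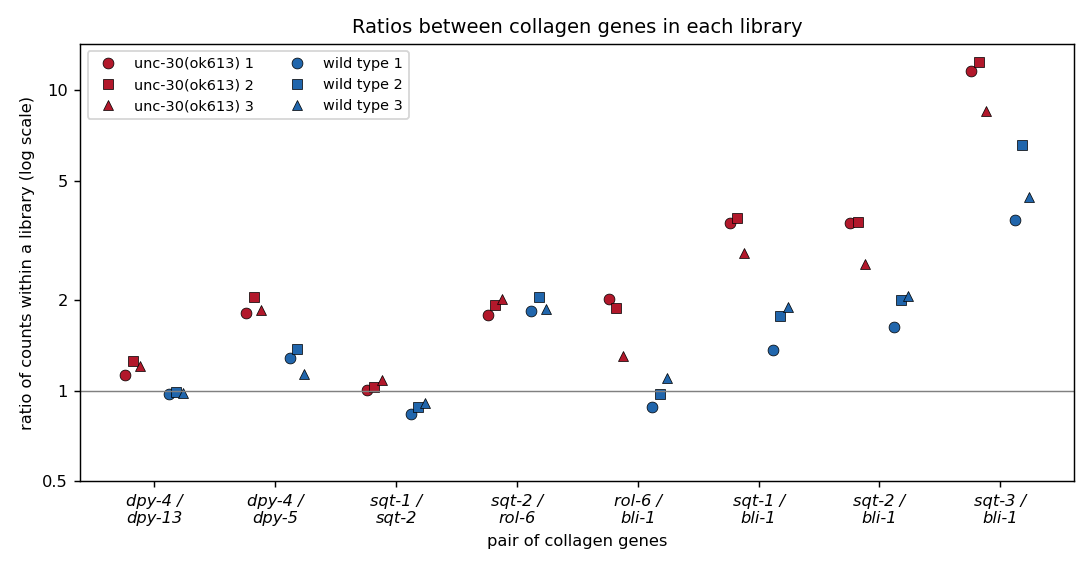
Ratio of the counts of 2 collagen genes within each library, on a log axis, with unc-30(ok613) libraries in red on the left of each pair and wild-type libraries in blue on the right. The groups are apart in every pair shown except sqt-2 to rol-6, which stayed between 1.79 and 2.06.

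As a pool, the 10 genes took 1.02%, 1.95% and 1.65% of all counts in mutant replicates 1 to 3, against 0.144%, 1.41% and 0.274% in wild-type replicates 1 to 3. The groups overlapped on that scale. On the TMM scale their summed level was 22212 ± 7732 CPM over the mutant libraries and 4323 ± 4954 CPM over the wild-type libraries (SD, n = 3 each), a difference of 2.98 in mean log2 that was 3.93 without wild-type replicate 2. The exact two-sided permutation test gave p = 0.10, the smallest that 3 against 3 allows. Per 100 counts of the 156 numbered col genes, the 10 collagens had 17.5, 50.2 and 46.3 counts in the mutant and 3.11, 25.8 and 4.65 counts in wild type, so they were not a constant part of all cuticle collagen and again overlapped through wild-type replicate 2.

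In the make-up of the pool the groups did not overlap for 2 of the 10 genes, dpy-5 and sqt-3. Set against the same pool, the groups did not overlap for 67.5% of 14299 tested genes with counts in every library. The pool itself differed between the groups and each collagen is a part of it, which other genes are not. The 2 of 10 and the 67.5% are therefore not alike, and nothing is read from their difference. dpy-5 made up 14.4%, 12.3% and 12.9% of the summed counts in mutant replicates 1 to 3, against 15.4%, 16.9% and 22.5% in wild-type replicates 1 to 3. sqt-3 made up 18.5%, 21.6% and 21.1% in the mutant and 17.5%, 17.9% and 9.88% in wild type. Mutant replicate 1 lay near the wild-type range for both. The difference in mean share, mutant minus wild type, was -5.05 percentage points for dpy-5 and 5.33 for sqt-3. These differences rested largely on wild-type replicate 3, without which they were -2.92 and 2.73, and without wild-type replicate 2 they were -5.74 and 6.74. rol-6 was the steadiest in the mutant, at 3.24% ± 0.0298, against 3.10% ± 0.945 in wild type, and bli-1 made up 1.93% ± 0.475 in the mutant and 3.22% ± 1.32 in wild type (SD, n = 3).

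**Figure D4:**
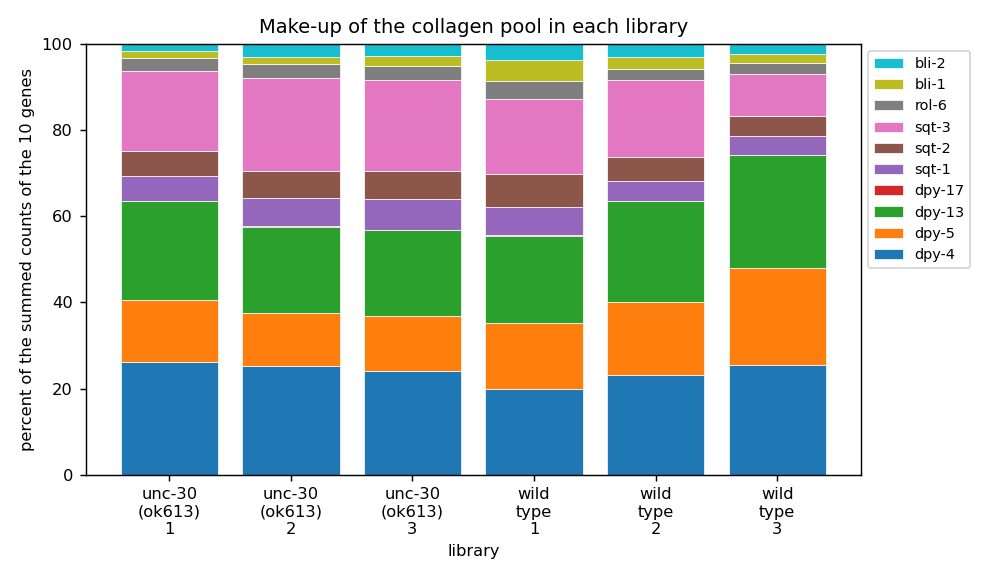
Share of each gene in the summed counts of the 10 collagen genes, as stacked bars in percent, 1 bar per library, with unc-30(ok613) libraries left of wild type. dpy-4, dpy-13 and sqt-3 make up most of every bar, and the sqt-3 share is lowest in wild-type replicate 3 (9.88%).

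Genes of related function were set beside the 10 collagens, from lists compiled from general knowledge. The furrow collagens, which build the grooves between annuli, went the same way. Of 6 tested, 5 rose and 0 fell, with a median log2 fold change of 3.29. dpy-3 rose most (log2 fold change 3.90, edgeR adjusted p = 0.0225), with 121, 448 and 466 CPM in mutant replicates 1 to 3, against 7.80, 55.3 and 6.61 CPM in wild-type replicates 1 to 3. dpy-8 rose by 3.32 on the log2 scale (edgeR adjusted p = 0.0345), and dpy-10, at 2.09, did not pass (edgeR adjusted p = 0.0690). The 5 calls were lost when mutant replicate 2 or 3, or wild-type replicate 1, was dropped, and all but that of dpy-9 without wild-type replicate 3, while dpy-2, dpy-3 and dpy-9 still passed on total counts. Without wild-type replicate 2 all 6 were called higher, with a median log2 fold change of 4.72 and 5.59 for dpy-3. The difference between furrow collagens and the 10 collagens was not tested.

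Of the 3 other shape and strut collagens tested, edgeR called 0 in either direction (1 higher at an unadjusted p under 0.05), while DESeq2 called 3 and limma-voom 1. bli-6, a further strut collagen, had the highest level, with 1295, 2814 and 2265 CPM in the mutant and 139, 1411 and 552 CPM in wild type (3.03-fold, edgeR adjusted p = 0.133). For rol-8 the log2 fold change was 2.86 (edgeR adjusted p = 0.0513), and for lon-3 it was 1.71 (edgeR adjusted p = 0.174). All 3 passed without wild-type replicate 2, and dpy-14 had too few counts to be tested.

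Enzymes and carriers that handle collagen inside the cell were mostly higher in the mutant. Of 10 genes for modification and secretion, 6 rose, 2 fell and 2 did not pass, with a median log2 fold change of 1.11. pdi-2, the protein disulfide isomerase subunit of prolyl 4-hydroxylase, rose 4.88-fold, with 3628, 7382 and 7211 CPM in mutant replicates 1 to 3, against 717, 2321 and 696 CPM in wild-type replicates 1 to 3. pdi-6, another disulfide isomerase gene, rose 3.31-fold (edgeR adjusted p = 0.00943). dpy-18, a catalytic subunit of prolyl 4-hydroxylase, rose 3.10-fold, and sec-23, a coat protein of vesicles that leave the endoplasmic reticulum, 2.82-fold. The falls were those of tmem-131, needed for collagen secretion (log2 fold change -1.57), and cyn-9, a cyclophilin gene, which had 12.99, 8.89 and 8.10 CPM in mutant replicates 1 to 3, against 24.4, 12.2 and 23.5 CPM in wild-type replicates 1 to 3.

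The rises of pdi-1, pdi-6 and sec-23 held when any 1 library was left out. That of pdi-2 was lost whenever any of mutant replicates 2 and 3 and wild-type replicates 1 and 3 was dropped (edgeR adjusted p up to 0.0647), as were those of sar-1 (up to 0.126) and the fall of cyn-9 (up to 0.178). For dpy-18 the call was lost if mutant replicate 2 or 3, or wild-type replicate 3, was dropped (up to 0.0708), and tmem-131 without mutant replicate 2 or 3 (up to 0.0697). On total counts 0 of these genes rose by edgeR (1 at an unadjusted p under 0.05), and tmem-131 and cyn-9 fell.

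Genes that trim and cross-link collagen outside the cell did not share that pattern on the TMM scale. Of 11 tested, 0 rose and 1 fell by edgeR (2 and 2 at an unadjusted p under 0.05), and the median log2 fold change was 0.07. DESeq2 called 2 of the 11 and limma-voom 3. The list was not flat, with log2 fold changes from -2.37 to 1.81. With 1 library left out, skpo-1 ranged from -4.225 to -1.72 and skpo-2 from 1.36 to 3.28 on the log2 scale. edgeR called skpo-1 only without mutant replicate 1 and skpo-2 only without wild-type replicate 2. mlt-7, a peroxidase that cross-links cuticle proteins, fell, with 15.1, 15.3 and 16.96 CPM in the mutant and 29.6, 36.7 and 77.0 CPM in wild type (3.03-fold lower, edgeR adjusted p = 0.0113). bli-3, the dual oxidase that supplies its peroxide, was at -0.29 on the log2 scale (edgeR adjusted p = 0.3998), and bli-4, the protease that trims collagen precursors, at 0.25 (edgeR adjusted p = 0.290). dpy-31, the astacin protease that acts on SQT-3, had 20.8, 36.2 and 33.2 CPM in the mutant and 23.2, 24.2 and 25.8 CPM in wild type (log2 fold change 0.30, edgeR adjusted p = 0.383). On total counts 0 rose and 8 fell, among them mlt-7, bli-3, bli-4 and dpy-31.

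Stage-linked collagens were split. The adult collagen col-19 had 1289, 132 and 133 CPM in mutant replicates 1 to 3, against 1187, 489 and 1254 CPM in wild-type replicates 1 to 3 (log2 fold change -0.91, edgeR adjusted p = 0.461). Mutant replicates 2 and 3, which were high in the 10 collagens, were the lowest in col-19, and mutant replicate 1 was the highest. The adult-linked col-7 and col-62 were ordered likewise within the mutant, at 172, 17.2 and 22.9 CPM and at 130.6, 16.1 and 22.4 CPM, against 65.6, 64.3 and 262 CPM and 61.3, 60.4 and 242 CPM in wild type. The L4-linked col-38, col-49, col-63 and col-138 had log2 fold changes of 1.41 to 1.97, and none passed. col-17, a collagen of earlier larvae, rose, with 1635, 2459 and 2442 CPM in the mutant and 87.6, 709 and 117 CPM in wild type (log2 fold change 2.84, edgeR adjusted p = 0.0321). That call was lost when any of mutant replicates 2 and 3 and wild-type replicates 1 and 3 was dropped (edgeR adjusted p up to 0.0873) and on total counts (0.0705), and without wild-type replicate 2 the log2 fold change was 4.42. In all, 1 of 9 stage-linked collagens rose and 0 fell by edgeR (3 and 0 at an unadjusted p under 0.05), DESeq2 called 5 and limma-voom 4. These counts changed with single libraries. Without mutant replicate 1, edgeR called 1 higher and 3 lower, the falls being col-19 (log2 fold change -2.80, edgeR adjusted p = 0.00316), col-7 (-2.61, edgeR adjusted p = 0.0286) and col-62 (-2.57, edgeR adjusted p = 0.0298). Without wild-type replicate 2 it called 5 higher and 0 lower. The exact age of the animals within L4 is not in the labels, so genotype and age at harvest cannot be told apart.

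Of 10 regulators of molting and cuticle genes, 2 rose, 1 fell and 7 did not pass. grh-1, the grainyhead epidermal factor, rose 4.60-fold, and myrf-1, a membrane-bound factor of the molting cycle, rose 3.81-fold. elt-1, a GATA factor of the epidermis, fell by 0.94 on the log2 scale (edgeR adjusted p = 0.0492), and that call was lost when any library but wild-type replicate 2 was left out. The calls of grh-1 and myrf-1 were lost without mutant replicate 2 or 3 and without wild-type replicate 1 (edgeR adjusted p up to 0.0621 and 0.0709) and on total counts. nhr-23, a nuclear receptor that drives molting genes, had 57.9, 48.8 and 60.1 CPM in the mutant and 43.4, 34.3 and 28.4 CPM in wild type (log2 fold change 0.65, edgeR adjusted p = 0.0543). lin-29, the factor of the switch to the adult epidermis, was at 0.86 on the log2 scale (edgeR adjusted p = 0.0847).

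Among the 16 molting effectors, 1 rose, 1 fell and 14 did not pass. noah-2, an apical matrix protein gene, rose by 3.30 on the log2 scale (edgeR adjusted p = 0.0239), and nas-36, a molting protease gene, fell by 1.46 on the log2 scale (edgeR adjusted p = 0.0234). Without wild-type replicate 2 edgeR called 10 of the 16 as higher and 1 as lower, where 19.4% of all genes were called higher and 21.8% lower. That library was picked out by the values of the 10 collagens, so this count is no support for a rise of molting genes. The call of noah-2 needed mutant replicates 2 and 3 and wild-type replicate 1 (edgeR adjusted p up to 0.0928 without one of them), and that of nas-36 every mutant library and wild-type replicate 3 (up to 0.0835). Of 10 genes of the DBL-1 body size pathway, a BMP-like signal that sets body length, 1 rose and 3 fell. sma-10 and sma-9 fell by 1.79 and by 1.53 on the log2 scale, calls that held when any 1 library was left out. sma-6 fell by 1.19 on the log2 scale, a call that needed mutant replicates 2 and 3 (without either of them, edgeR adjusted p up to 0.0541). lon-1 rose by 1.03 on the log2 scale, a call that was lost on total counts (edgeR adjusted p = 0.994) and when any of mutant replicates 2 and 3 and wild-type replicates 1 and 3 was dropped (adjusted p up to 0.138).

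**Figure D5:**
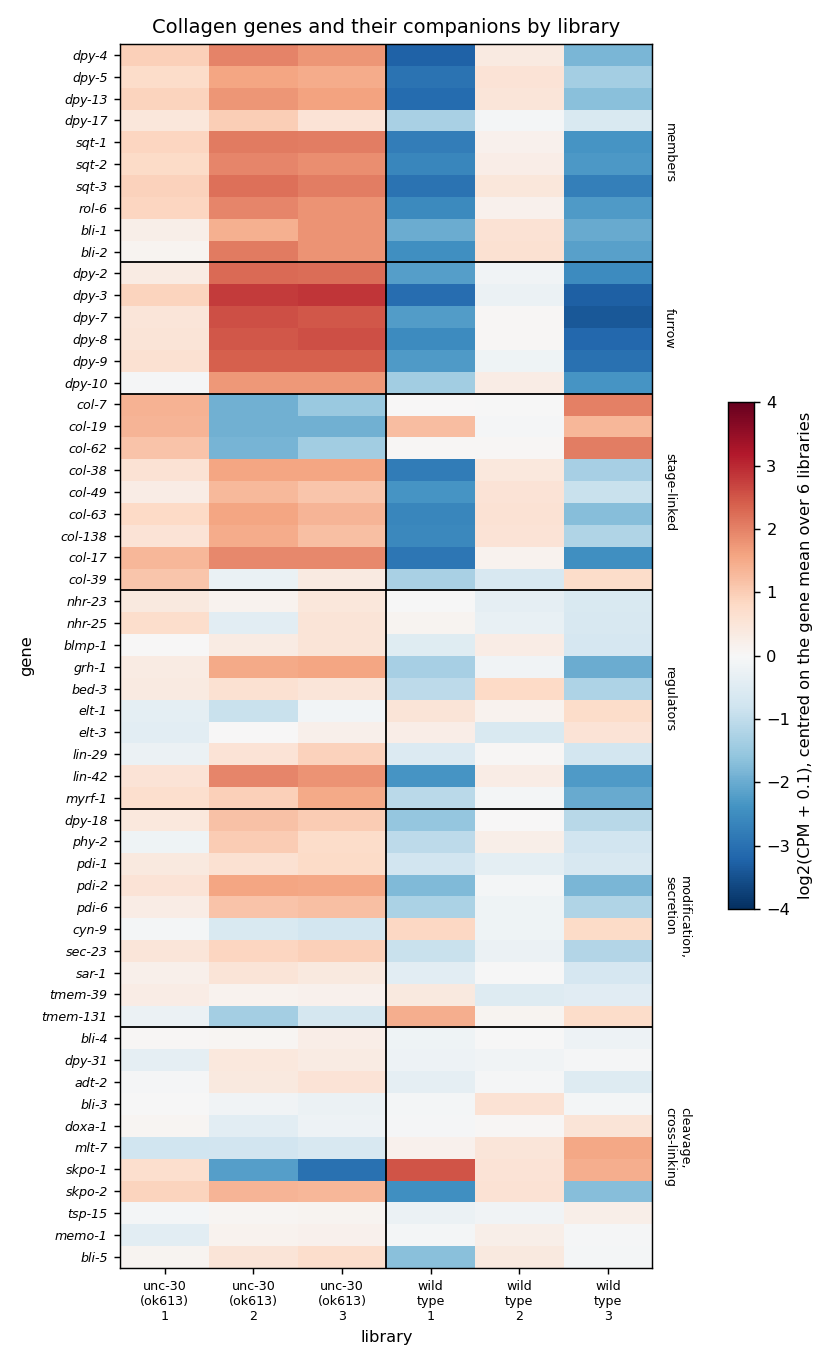
Level of the 10 collagens and 5 companion lists by library, as log2(CPM + 0.1) centred on each gene's mean over the 6 libraries, red for above and blue for below the mean, with unc-30(ok613) libraries left of wild type and horizontal lines between lists. Mutant replicates 2 and 3 are red and wild-type replicates 1 and 3 blue for nearly all collagens of the first 2 blocks, while col-7, col-19 and col-62 show another order.

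Over the 6 libraries the mean profile of the 10 collagens, as log2 CPM centred on each gene's mean, was 0.68, 1.80 and 1.68 in mutant replicates 1 to 3, against -2.59, 0.36 and -1.93 in wild-type replicates 1 to 3. Among 9378 other genes with a mean of at least 5 CPM, the 5 with the smallest root mean square difference from this profile were hhat-1 (0.10), WBGene00018737 (0.16), which has no symbol in the annotation used, ZC123.1 (0.18), the saposin-like gene spp-13 (0.19) and lin-42 (0.20). lin-42, the PERIOD-like gene of larval timing, had 274, 733 and 654 CPM in mutant replicates 1 to 3, against 36.7, 233 and 38.8 CPM in wild-type replicates 1 to 3 (log2 fold change 2.43, edgeR adjusted p = 0.0521). Within the set the nearest pair was sqt-2 and rol-6 (0.071 over 6 libraries), followed by sqt-1 and sqt-2 (0.13) and by dpy-4 and dpy-13 (0.15). dpy-17 lay farthest from the mean profile (0.95), and bli-1 was the member nearest to it, at 0.88.

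Summed levels of marker genes of several tissues also moved on the TMM scale, but a sum follows its most abundant genes. The median log2 fold change was 0.61 for epidermal, 0.84 for muscle, 0.06 for intestinal and 0.08 for neuronal markers. It was -0.09 for germline and -0.55 for sperm markers. The summed level of 7 epidermal markers was 191 to 428 CPM in the mutant, against 77.0 to 148 CPM in wild type, without overlap, with 1 of the 7 called higher (wrt-10) and 1 lower (elt-1). The sum of 5 body wall muscle markers was 10655 to 15732 CPM in the mutant, against 3820 to 6688 CPM in wild type, that of 6 intestinal markers 1443 to 2249 CPM and 732 to 1223 CPM, and that of 6 neuronal markers 227 to 311 CPM and 153 to 167 CPM. The 6 germline markers summed to 1693 to 2473 CPM in the mutant, against 1547 to 1900 CPM in wild type, and the 6 sperm markers to 181 to 210 CPM and 162 to 284 CPM, both with overlap. By edgeR 3 of the 5 muscle markers were called higher and 1 lower, 1 of the 6 intestinal markers higher, 1 of the 6 neuronal markers higher and 1 lower, 1 of the 6 germline markers lower and 2 of the 6 sperm markers lower. On total counts the calls of muscle, intestinal and neuronal markers turned to lower: edgeR called 0 muscle markers higher and 2 lower, 0 intestinal markers higher and 3 lower, 0 neuronal markers higher and 5 lower, 0 germline markers higher and 5 lower, 0 sperm markers higher and 6 lower, and 1 epidermal marker higher and 3 lower. No marker was at 0 in any library. In whole animals fewer cells of a type and less RNA per cell cannot be told apart, and the part of tissue make-up in the collagen results was not tested.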

How the data were processed

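The values deposited by the authors are raw read counts for each WormBase gene, in 1 table per library. The submitters' processing notes list HTSeq and DESeq2. Which aligner, genome build, annotation, strand option and software versions were used is not given in the labels. Symbols, positions and exon lengths came from Ensembl release 115 (WBcel235), which held 46863 of the 46911 identifiers.

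The genotypes were compared across all genes by the edgeR quasi-likelihood F-test (edgeR 4.0.16, R 4.3.3). It used TMM factors, the default expression filter (14506 genes kept) and robust dispersion estimates, with no term but group, and p-values were adjusted by Benjamini-Hochberg. Adjusted p-values without a named tool come from this fit. DESeq2 1.42.0 and limma-voom (limma 3.58.1) were alternatives, as were other scalings and filters, removal of length trends, a replicate block and leaving out each library. The edgeR fit, its scalings by total counts and by DESeq2 size factors, DESeq2, limma-voom and the length and block fits were tested on simulated counts. The fits without ribosomal RNA, with other filters or with a library left out were not.

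All 10 members are described; of each list at least the 2 largest rises and falls past the threshold are named or, where none passed, the gene with the highest CPM, with further members chosen for their known role. The likeness measure used log2 CPM with a prior count of 1. Members and lists were chosen with earlier results of these data known. No sequence is shown. The lowest count of any of the 10 collagens was 62, and depth covers counting error only.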

Additional observations from a re-analysis of the deposited data

How the results depend on the processing

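All 10 log2 fold changes stayed above 0 in every alternative run. Values here are log2 fold changes. With scaling by total counts, sqt-1 (1.78), sqt-2 (1.53), rol-6 (1.59) and dpy-17 (0.29) no longer passed. With ribosomal RNA also left out of the totals they were 1.90, 1.65, 1.71 and 0.38 and did not pass. In both, 0 of 10 collagens were called, and with total counts 8673 genes were called in all, against 5511 with TMM. With no expression filter dpy-17 was the 1 collagen called, and sqt-1 (2.80), sqt-2 (2.55) and rol-6 (2.61) were not. With length trends removed sqt-2 (2.52) was not called. DESeq2 also called dpy-4 (2.53), dpy-5 (1.99), dpy-13 (2.24), sqt-3 (2.75) and bli-1 (1.94), 9 in all. limma-voom called all 10, with dpy-4 at 3.16, dpy-5 at 2.56, dpy-13 at 2.87, sqt-3 at 3.50, bli-1 at 2.32 and bli-2 at 2.69. The cause was not tested.

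Same-numbered libraries matched best for replicates 1 and 2 but not for replicate 3. Their deviations from the group means correlated at 0.45, 0.42 and -0.07 for replicates 1, 2 and 3, and mutant replicate 3 correlated best with wild-type replicate 2 (0.31). Whether the libraries were paired was not settled by this, so the block is given only as an alternative. With a replicate block all 10 collagens were called, with dpy-4 at 3.15, dpy-5 at 2.55, dpy-13 at 2.87, sqt-3 at 3.50, bli-1 at 2.28 and bli-2 at 2.64. Over all 14506 genes tested, the block called 3230 higher and 3713 lower. The block with length trends removed also called 10, at 3.14, 2.43, 2.85, 3.63, 2.75 and 2.62 for the same genes. Of all genes tested it called 3637 higher and 3302 lower.

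Leaving out 1 library in turn gave 0 to 10 calls among the collagens and 2791 to 6154 among all genes. The ranges were 1.97 to 3.99 for dpy-4, 1.43 to 3.28 for dpy-5, 1.68 to 3.68 for dpy-13, 1.02 to 1.65 for dpy-17, 2.37 to 4.32 for sqt-1, 2.13 to 4.07 for sqt-2, 2.22 to 4.67 for sqt-3, 2.20 to 4.01 for rol-6, 1.47 to 3.30 for bli-1 and 1.73 to 3.85 for bli-2.

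Calls per list are counted here in both directions. On total counts the list medians also turned for regulators (-0.36, against 0.66 with TMM) and for cleavage and cross-linking (-0.94, against 0.07), and genes for collagen modification had 0 rises and 2 falls, against 6 and 2. Other shape and strut collagens had 0 calls with the edgeR setting used, 1 with DESeq2 size factors, with a filter of 1 CPM in 3 libraries or with limma-voom, and 3 with DESeq2 or either block. Furrow collagens had 3 calls with total counts and 0 with no filter, and 0 to 6 with 1 library left out. Stage-linked collagens had 0 with either total or with no filter, 5 with DESeq2, 4 with limma-voom and 5 with either block (0 to 5 with 1 library left out). Genes for collagen modification had 2 and 3 calls with the 2 totals and 3 to 9 with 1 library left out. Genes for cleavage and cross-linking had 8 and 7 with the 2 totals, 2 with DESeq2, 3 with limma-voom or with length trends removed, and 4 and 5 with the 2 blocks (1 to 3 with 1 library left out). Regulators had 6 with DESeq2 or with length trends removed, and 5 and 7 with the 2 blocks (0 to 7). Molting effectors had 4 with either total, 10 with DESeq2, 9 with limma-voom, 6 with length trends removed, and 9 and 14 with the 2 blocks (0 to 11). The DBL-1 pathway had 7 with either total (2 to 4 with 1 library left out).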
